A study of Cricetulus griseus with 10 samples.

Results

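The electron transport chain and the ATP synthase of the inner mitochondrial membrane are built mostly from subunits that nuclear genes encode, and these genes are described here through the suspension adaptation of CHO-K1, an established line from Chinese hamster ovary. A row of the expression table was taken as a member when its symbol began with the prefix of a complex I, complex III, cytochrome c oxidase or ATP synthase subunit family, or was 1 of the 4 succinate dehydrogenase genes or Cyc1. Assembly factors were left out, and a mean of at least 10 normalised reads over the 10 libraries was required. There were 57 members among 25156 features, of which 13521 passed the same minimum and were tested. Of the 57, 35 belong to complex I, 4 to complex II, 2 to complex III, 1 to complex IV and 15 to complex V, and 7 were named by symbol in the table while 50 were named through their gene number. Ndufa4l2 was the 1 further row found by name and stayed under the minimum, at 0 to 3.37 normalised reads. No row matched a symbol starting with Cox4, Cox5, Cox6, Cox7, Cox8 or Cyc1, nor any mitochondrially encoded subunit, so most of cytochrome c oxidase and of complex III was not analysed here.

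Bulk RNA sequencing was done in duplicate at passages 0, 2, 4, 6 and 10 of adaptation in SFM4CHO medium, written here as P0, P2, P4, P6 and P10. All 10 libraries came from wild-type CHO-K1 cells, so every group shares the line, the genotype and the medium named in the labels, and the groups differ in passage alone as far as the labels say. It is not stated how P0 cells were cultured, whether the line was 1 clone, or whether duplicates were separate cultures. P-values therefore measure only the spread between these libraries, which may be technical, and in bulk RNA fewer cells of a type and less RNA per cell cannot be told apart. Libraries held 8394219 to 16599495 reads. The values are normalised reads, that is, reads assigned to a feature divided by a size factor of the library, with no correction for gene length, so levels are compared between libraries and not between genes. Many respiratory chain genes have processed pseudogene copies in mammalian genomes, and it is not stated how the counting shared reads among such copies.

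The respiratory chain passes electrons from NADH (complex I) and succinate (complex II) through complex III to cytochrome c oxidase (complex IV) and oxygen, and complexes I, III and IV pump protons across the inner membrane. ATP synthase (complex V) uses the returning protons to make ATP. Complexes I, III, IV and V combine nuclear subunits with subunits made inside the mitochondrion from mitochondrial DNA, while complex II is nuclear throughout. Nuclear subunit genes are known to be transcribed under shared factors, among them Nrf1, the GA-binding protein and the oestrogen-related receptor Esrra, with coactivators of the PGC-1 family.

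The duplicates of P6 and P10 stood apart from the others, and this touches every result at those passages. The correlation of log2 values over all tested features was 0.988, 0.989 and 0.992 between the duplicates of P0, P2 and P4, and 0.956 and 0.93 between those of P6 and P10. Among the 57 members the median absolute log2 gap between duplicates was 0.158 at P0, 0.112 at P2, 0.098 at P4, 0.61 at P6 and 0.927 at P10. The same gap over all tested features was 0.175, 0.146, 0.127, 0.43 and 0.575. A single gene, Dym, took 8.53% to 13.5% of each library from P0 to P4, and 10.7% of P10 replicate 2. It held 4.32% in P6 replicate 1, 1.15% in P6 replicate 2 and 1.41% in P10 replicate 1. With the libraries scaled to equal totals without Dym, 7 members were called at P10 against P0 in place of 9, and 11 at P6 as before. Of all 13521 tested features, 2139 were then called at P10 in place of 2301, and 2673 at P6 in place of 2841. The members' calls lost in this setting were Ndufb4 and Atp5pb at P10 and Ndufa6 at P4. The main results at P6 and P10 are given with and without the 2 libraries of lowest Dym share. The ovarian cell label was set against marker genes: the mesenchymal markers, summed over the 9 that were tested, held 44525 and 39938 normalised reads in P0, 77698 and 75452 in P2, 76669 and 79531 in P4, 60717 and 51521 in P6 and 46276 and 48340 in P10, with Thy1 at 0 in all 10 libraries. This mesenchymal sum was highest at P2 and P4, where most members also lay above P0, and 4 of its 9 genes rose and 0 fell at P4. Much of that rise was Col3a1, at 11822 and 11120 normalised reads in P0, 43931 and 41963 in P2 and 41328 and 42248 in P4. Of the 9 genes, 7 were positive at P4. Fn1 went the other way, with 7604 and 5351 in P0 and 3600 and 4154 in P4, and fell at P10. The epithelial markers held 259.6 and 339 in P0, 269.7 and 307 in P2, 266 and 212 in P4, 117 and 102 in P6 and 131 and 421 in P10 over the 3 of 12 that were tested, with Krt18 and Cldn7 at 0 in 9 of 10 libraries. This epithelial sum was lowest in the P6 libraries and P10 replicate 1 and highest in P10 replicate 2. Most of it was Cdh1, at 200 and 280 in P0, 90.0 and 50.6 in P6 and 81.85 and 337 in P10. Ocln moved likewise, at 20.0 and 31.6, 8.61 and 11.2, and 17.7 and 41.4. Grhl2 did not, at 39.2 and 27.3, 18.0 and 40.4, and 31.2 and 42.9. Epcam, under the minimum, went the other way at P6, with 4.36 and 2.87 in P0, 16.4 and 11.2 in P6 and 11.8 and 10.9 in P10. Of the 4 granulosa cell markers tested, 1 was positive at P10 against P0 and rose, and the median difference was -0.27. That gene, Star, averaged 1249.8 ± 184 normalised reads at P10 against 213 ± 10.5 at P0 (SD, n = 2 each), while Amh, Fshr and Inha differed by -0.26, -0.28 and -0.37 and did not pass. For leukocytes, 5 of 10 markers were tested, and their sum was 60.1 and 67.5 normalised reads in P0, 118 and 121 in P2, 191 and 213 in P4, 153 and 204 in P6 and 160.3 and 113 in P10, with Cd14, Aif1 and Tyrobp at 0 in 8 or more libraries. At P4, 4 of these 5 leukocyte markers were positive and 2 rose. Itgax held 0 and 1.44 normalised reads in P0 and 71.2 and 78.1 in P4, and Cd68 held 32.2 and 37.4 and then 82.1 and 97.9. Ptprc held 9.58 and 18.7 in P0 and 11.9 and 12.8 in P4. The part of such marker genes in the results below was not tested.

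At P2 and P4 nearly the whole family lay higher than at P0. The median log2 difference of the 57 members was 0.29 at P2 and 0.41 at P4 against P0, beside 0.01 and 0.03 for all tested features, and 52 of 57 members were positive at each. Both P2 libraries lay above both P0 libraries for 46 members and below for 2, where 34.2% and 32.9% of all tested features did so. At P4 the counts were 49 above and 3 below, beside 37.8% and 34.6% of all tested features. For 24 of 57 members the duplicates stood in the order P0, P2, P4 with no overlap at either step, which held for 11% of all tested features. The 2 comparisons share the P0 libraries. The members together held 0.585% and 0.577% of normalised reads in P0, 0.709% and 0.662% in P2, 0.751% and 0.728% in P4, 0.799% and 0.626% in P6 and 0.708% and 0.838% in P10.

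Single genes seldom passed the test at these passages. Each gene was tested with limma on log2 values in 1 fit of all 10 libraries, with Benjamini-Hochberg adjustment over all 13521 features and a threshold of 0.05. At P2 against P0, 0 of 57 members rose and 0 fell, while 2.08% and 2.07% of all tested features did, 4.15% in total. At an unadjusted p under 0.05 there were 5 members, beside 18.6% of all tested features, and edgeR called 0 and DESeq2 called 2 members, beside 3.71% and 7.85% of all tested features. At P4 against P0, 4 members rose and 0 fell, 7.02% of the members, and the background was 3.72% for a rise, 5.52% for a fall and 9.24% for either. The share of members called was thus near the background at P4, while the share lying above P0 without overlap was larger. The fit pools the spread of all passages, and with P6 replicate 2 and P10 replicate 1 left out it called 27 members at P2 and 40 at P4, beside 34.1% and 43.1% of all tested features. At P4, edgeR called 4 members (8.89% of all tested features), and a fit of the P0 and P4 libraries alone called 41 (42.0%).

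**Figure D1:**
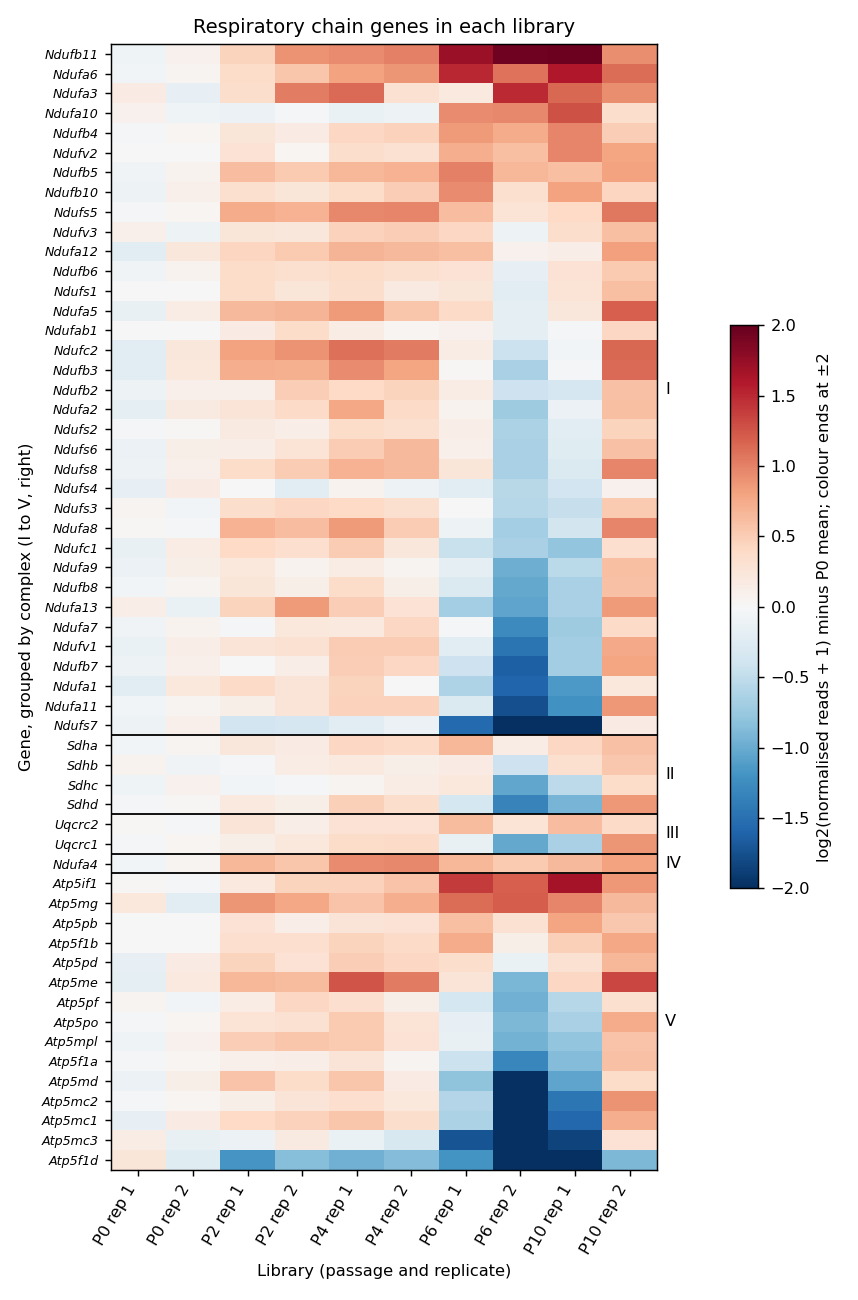
Respiratory chain genes (rows) in each of the 10 libraries (columns), as log2(normalised reads + 1) minus the gene's P0 mean. Rows are grouped by complex and ordered within it by the mean of P6 replicate 2 and P10 replicate 1, highest first. Red is higher and blue lower, and colours end at ±2. Most rows are red at P2, P4 and P10 replicate 2, while P6 replicate 2 and P10 replicate 1 hold both strong reds and strong blues.

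The 4 members called at P4 were Ndufa4, Ndufs5, Ndufa6 and Ndufb5. Ndufa4 had 1101 and 1187 normalised reads in P0, 1808 and 1676 in P2, 2194 and 2238 in P4, 1808 and 1636 in P6 and 1789 and 1995 in P10, given here and below for replicate 1 and then replicate 2. Ndufa4 was first counted with complex I and is now placed in mammalian cytochrome c oxidase, so it is the only member here from complex IV. All 8 later libraries of Ndufa4 lay above both P0 libraries, with the highest values at P4, where the log2 difference from P0 was 0.95 ± 0.15 (SE) with adjusted p = 0.0083. Ndufs5 had 554 and 591 normalised reads in P0, 956 and 929.8 in P2, 1111 and 1121 in P4, 875 and 694 in P6 and 753 and 1183 in P10. Ndufs5 encodes an accessory subunit of complex I on the side of the intermembrane space, and its values also lay above P0 in all later libraries, by 0.96 ± 0.22 at P4 (adjusted p = 0.0322). Ndufa6 and Ndufb5 rose by 0.84 ± 0.21 and 0.68 ± 0.17 at P4 (adjusted p = 0.0442 and 0.045). Without P0 replicate 1, P0 replicate 2, P4 replicate 1 or P4 replicate 2 a lone library of a compared passage was left. None of the 4 passed in these fits, and most calls over all tested features were lost as well. Without P2 replicate 1 or P2 replicate 2 only Ndufa4 passed, beside 5.16% or 5.15% of all tested features. Across those 6 left-out libraries the adjusted p of the lost calls reached 0.277 for Ndufb5, 0.263 for Ndufa6, 0.209 for Ndufs5 and 0.103 for Ndufa4. Without P10 replicate 1 or P10 replicate 2, 13 members were called at P4, beside 20.6% or 20.4% of all tested features, and 5 at P2, beside 11.7% or 11.6%.

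Between P2 and P4 the median log2 difference of members was 0.11. No feature of the whole table passed by limma in P4 against P2 (0% called), with 0 members at an unadjusted p under 0.05 beside 2.11% of all tested features, and edgeR and DESeq2 called 0 members.

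At P6 the family split. The median log2 difference of the 57 members from P0 was -0.28, beside -0.07 for all tested features, with 22 members positive and 35 negative. The 2 libraries of P6 differed: in replicate 1, 29 members lay above both P0 libraries and 22 below, while in replicate 2, 16 lay above and 38 below. Of all tested features, 44.1% lay above and 44.8% below in P6 replicate 1, and 41.4% above and 49.6% below in P6 replicate 2. P6 replicate 2 was the lowest of all 10 libraries for 36 of 57 members and for 25.2% of all tested features. With P6 replicate 2 left out the members' median was 0.13, and with P6 replicate 1 left out it was -0.64, so its sign rests on P6 replicate 2. At P6, 9 members rose and 2 fell (19.3% of members), beside 10.5% of all tested features in each direction and 21% in either. The count of calls at P6 was 0 without P0 replicate 1 (3.05% of all tested features), 2 without P0 replicate 2 (5.19%), 6 without any 1 of the P2, P4 and P6 libraries (11.6% to 13.3%) and 27 without either P10 library (40.2%). Without P6 replicate 2 and P10 replicate 1 it was 28, beside 48.8% of all tested features. For 16 members both P4 libraries lay above P0 and both P6 libraries below P0 with no overlap, which held for 5.47% of all tested features. These 16 were Atp5f1a, Atp5mc1, Atp5mc2, Atp5md, Atp5mpl, Atp5pf, Atp5po, Ndufa11, Ndufa13, Ndufa8, Ndufb7, Ndufb8, Ndufc1, Ndufv1, Sdhd and Uqcrc1.

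At P6 against P4, 43 of 57 members had a negative difference, with a median of -0.65 beside -0.01 for all tested features. Both P6 libraries lay above both P4 libraries for 8 members and below for 39, beside 32.6% and 33.9% of all tested features. No feature of the table passed by limma in P6 against P4 (0% called), with 28 of 57 members at an unadjusted p under 0.05 beside 25.5% of all tested features. There edgeR called 0 members and DESeq2 called 4, beside 3.42% of all tested features, and limma without P6 replicate 2 and P10 replicate 1 called 35, beside 27.5% of all tested features.

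At P10 the 2 libraries lay on either side of P0 for much of the family. In P10 replicate 1, 23 members lay above both P0 libraries and 30 below, while in P10 replicate 2, 55 lay above and 1 below. Of all tested features, 43.4% lay above and 46.9% below in P10 replicate 1, and 47.8% above and 40.3% below in P10 replicate 2. P10 replicate 2 was the highest of the 10 libraries for 34 of 57 members, beside 17.7% of all tested features. Replicate 2 exceeded replicate 1 by more than 1.5 times for 35 members and the reverse held for 3, Ndufa10, Ndufb11 and Atp5if1, beside 25.9% and 23.9% of all tested features. The median difference of the members from P0 was 0.24 with both libraries, 0.61 without P10 replicate 1 and -0.21 without P10 replicate 2, beside 0.002 for all tested features. Its direction at P10 therefore rests on which library is kept. At P10 against P0, 8 members rose and 1 fell (15.8% of members), beside 8.77% and 8.25% of all tested features and 17% in either direction. At an unadjusted p under 0.05 there were 17 members, beside 32.7% of all tested features. Both P10 libraries lay above both P0 libraries for 23 members and below for 1, beside 28.3% and 26% of all tested features. In P10 against P6, 50 of 57 members had a positive difference, with a median of 0.43 beside 0.04 for all tested features. The members' median was 0.83 without P6 replicate 1, 0.12 without P6 replicate 2, 0.81 without P10 replicate 1 and 0.04 without P10 replicate 2. Both P10 libraries lay above both P6 libraries for 5 members and below for 1, beside 13.4% and 11.1% of all tested features. No feature passed by limma in this step (0% called), with 4 members at an unadjusted p under 0.05 beside 9.41% of all tested features. There edgeR and DESeq2 called 0 members, beside 0% and 0.496%.

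**Figure D2:**
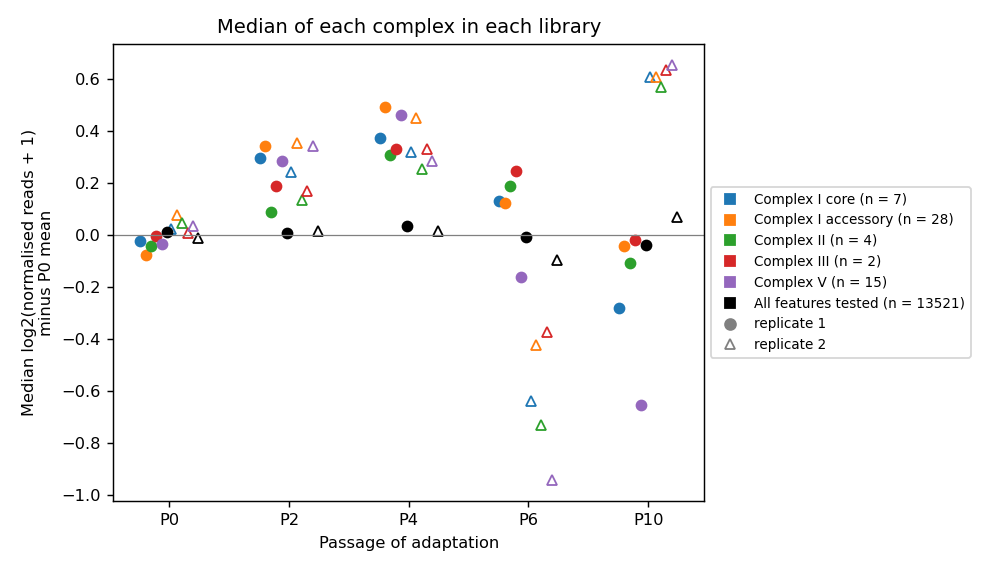
Median over the subunits of each complex of log2(normalised reads + 1) minus the P0 mean (vertical axis), by passage (horizontal axis), with filled circles for replicate 1 and open triangles for replicate 2 and all 13521 tested features in black. The complexes lie together above 0 at P2 and P4, with complex IV, of 1 gene, not drawn, and at P10 all those drawn lie at 0.57 to 0.65 in replicate 2 and at -0.02 to -0.65 in replicate 1.

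The calls at P10 depended on the P0 libraries and on the pooled spread. Without P0 replicate 1 or P0 replicate 2 a lone P0 library was left, and most calls over all tested features were lost with those of the members. Ndufa6 kept its call without P0 replicate 2, and no other member did in either fit. The members' median difference was 0.24 without P0 replicate 1 and 0.29 without P0 replicate 2. Over all tested features it was 0.008 and 0.0004. Leaving out 1 P2 or P4 library gave 5 calls each, beside 9.85% to 10.3% of all tested features. Leaving out 1 P6 library gave 11, beside 18.9% or 18.8%, so these counts moved with those of the whole table. Without P10 replicate 1 or P10 replicate 2 a lone P10 library was left. The members' median difference was then 0.61 or -0.21, beside 0.07 or -0.04 for all tested features. Fitted on the 4 libraries of P0 and P10 alone, 0 members passed, beside 0.362% of all tested features. With P6 replicate 2 and P10 replicate 1 both left out, 47 members rose and 1 fell, beside 46.3% of all tested features in either direction, and the lone P10 library is then assumed to vary like the other groups.

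Complex I oxidises NADH and passes its electrons to ubiquinone. Its 7 nuclear core subunits carry the flavin and the iron-sulphur clusters, and 28 members are accessory subunits that surround this core. At P10, 5 of the 35 were called and all rose, namely Ndufa6, Ndufb11, Ndufv2, Ndufb4 and Ndufb5. Of all tested features 8.77% rose and 8.25% fell there. Ndufa6 had 701 and 759 normalised reads in P0, 945 and 1072 in P2, 1273 and 1347 in P4, 2079 and 1549 in P6 and 2221 and 1583 in P10. Ndufa6, an accessory subunit that binds the mitochondrial acyl carrier protein, was higher in every later library than in either P0 library, and the groups at P0, P2 and P4 did not overlap. It rose by 1.30 ± 0.21 at P6 and 1.36 ± 0.21 at P10 against P0 (adjusted p = 0.00591 and 0.00542). Both calls were lost without P0 replicate 1, at adjusted p = 0.0639 for P6 and 0.0645 for P10, and held in the other 9 fits with 1 library left out.

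Ndufb11 had 388 and 433 normalised reads in P0, 557 and 766 in P2, 789.6 and 826 in P4, 1351 and 1577 in P6 and 1591 and 783 in P10. Ndufb11, an accessory subunit of the membrane arm, was highest in both P6 libraries and P10 replicate 1, and P10 replicate 2 stood near the P4 level. Its log2 difference from P0 was 1.83 ± 0.31 at P6 and 1.44 ± 0.31 at P10 (adjusted p = 0.00634 and 0.0159). Ndufv2 had 2473 and 2482 normalised reads in P0, 3039.9 and 2552 in P2, 3165 and 3066 in P4, 4103 and 3741 in P6 and 4877 and 4294 in P10. Ndufv2 is a core subunit with an iron-sulphur cluster in the NADH-binding part, and it was the only core subunit called. It rose by 0.66 ± 0.17 at P6 and 0.89 ± 0.17 at P10 (adjusted p = 0.0285 and 0.0111). Ndufb11 lost its call without P0 replicate 1 at P6 (adjusted p = 0.0653), and both Ndufb11 and Ndufv2 lost theirs without P0 replicate 1 or P0 replicate 2 at P10 (up to 0.125 and 0.0985). For Ndufv2 at P6 the call passed in 2 of 10 such fits, those without a P10 library, and its adjusted p reached 0.155.

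Ndufb4 had 680.3 and 713 normalised reads in P0, 826 and 782 in P2, 933 and 959 in P4, 1251 and 1171 in P6 and 1367 and 977 in P10. Ndufb5 had 1118 and 1240.3 normalised reads in P0, 1804 and 1686 in P2, 1874 and 1907 in P4, 2357 and 1869 in P6 and 1791 and 2066 in P10. Both encode accessory subunits of the membrane arm, and in both genes every later library lay above both P0 libraries. Ndufb4 rose by 0.80 ± 0.18 at P6 and 0.73 ± 0.18 at P10, and Ndufb5 by 0.83 ± 0.17 and 0.71 ± 0.17 (adjusted p = 0.0199 and 0.0291 for Ndufb4, 0.014 and 0.0268 for Ndufb5). Of the 10 fits with 1 library left out, Ndufb4 passed in 6 at P6 and 3 at P10, and Ndufb5 in 7 at P6 and 4 at P10. Both were lost at both passages without P0 replicate 1 or P0 replicate 2. At P6 both were also lost without P6 replicate 1 and Ndufb4 without P6 replicate 2, and at P10 both without any P2 or P4 library and Ndufb4 without P10 replicate 1. Their highest adjusted p in these fits was 0.131 at P6 and 0.176 at P10 for Ndufb4, and 0.117 and 0.188 for Ndufb5.

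Ndufa10 had 1773 and 1565 normalised reads in P0, 1528 and 1618 in P2, 1525 and 1544 in P4, 3213 and 3256 in P6 and 4022 and 2115 in P10. Ndufa10, an accessory subunit of the membrane arm, differed from the genes above in that P2 overlapped with P0 and P4 lay below it, while both P6 and both P10 libraries lay above it. It rose by 0.96 ± 0.27 at P6 (adjusted p = 0.0363), a call that passed only without a P10 library among the 10 fits with 1 library left out and reached 0.182 in the others, and its P10 difference of 0.81 ± 0.27 did not pass (adjusted p = 0.0699).

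The core subunit Ndufs7 had the lowest P10 difference of complex I and, of all 57 members, the widest spread over the 10 libraries, with an SD of 1.13 of its log2 values. Ndufs7 had 537 and 622 normalised reads in P0, 442 and 456 in P2, 499 and 534 in P4, 196 and 73 in P6 and 101 and 646 in P10. Ndufs7 carries the iron-sulphur cluster that hands electrons to ubiquinone. Its values in P6 replicate 2 and P10 replicate 1 were the lowest, and P10 replicate 2 was the highest of all 10. The differences of -2.26 ± 0.74 at P6 and -1.17 ± 0.74 at P10 did not pass (adjusted p = 0.059 and 0.312). Other complex I genes with the same high P10 replicate 2 and low P10 replicate 1 were Ndufa11, with 454 and 1924 normalised reads at P10 against 1017 and 1098 at P0, and Ndufv1, the flavin-carrying core subunit, with 1057 and 2878 at P10 against 1552 and 1884 at P0. Of the 35 complex I genes, 28 were higher in P10 replicate 2 than in replicate 1 and 32 were higher in P6 replicate 1 than in replicate 2, beside 50.3% and 55.2% of all tested features. Ndufab1, the acyl carrier protein, varied least of the 57 members, with an SD of 0.18 and values between 864 and 1307 normalised reads over the 10 libraries.

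**Figure D3:**
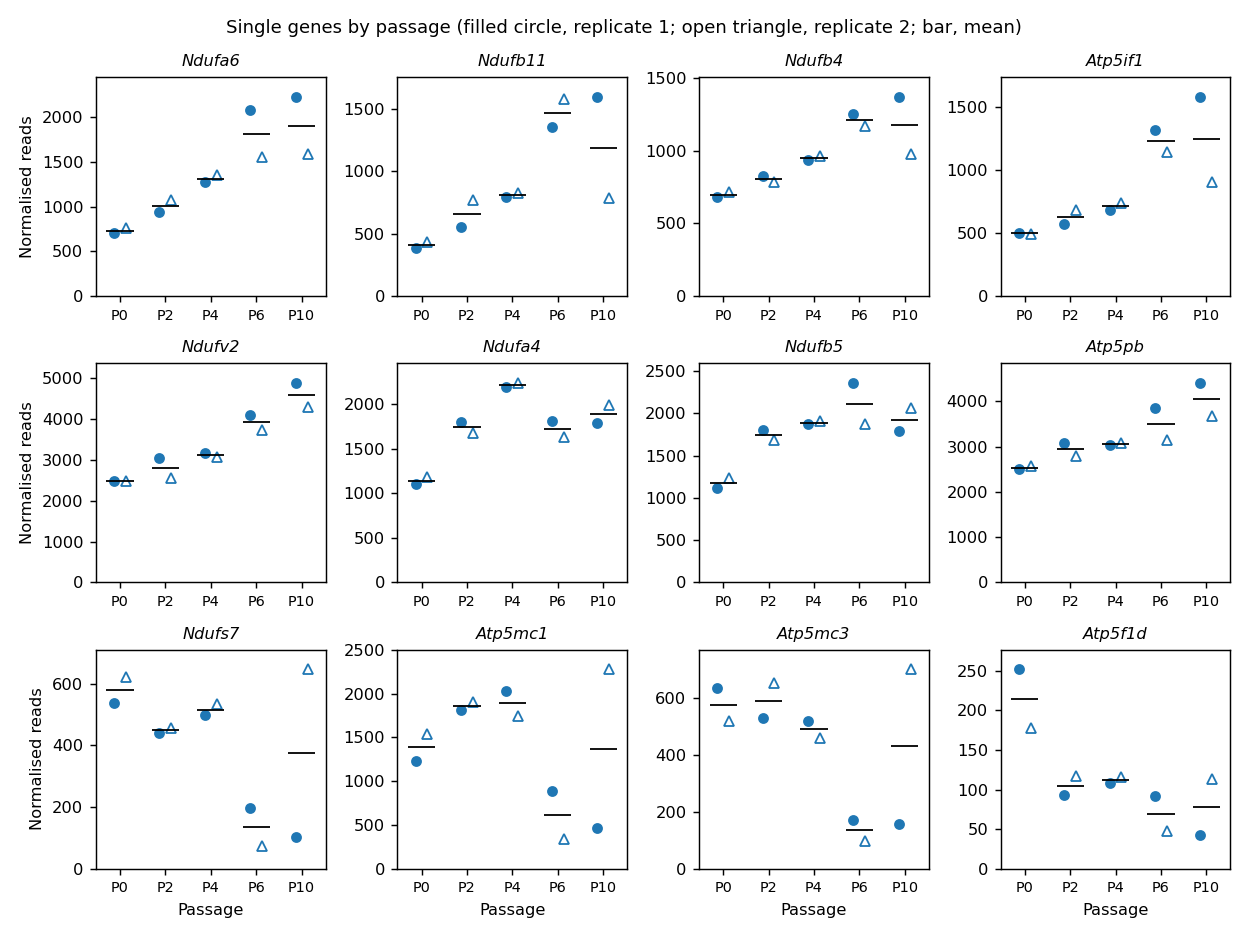
Normalised reads (vertical axes, each starting at 0) by passage (horizontal axes) for 12 respiratory chain genes, with filled circles for replicate 1, open triangles for replicate 2 and bars for the mean. The 8 genes in the upper rows stood above P0 in every later library, while Ndufs7, Atp5mc1 and Atp5mc3 in the lowest row had P10 duplicates on either side of P0.

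Complex II, succinate dehydrogenase, links the citric acid cycle to the chain. At P10, limma, edgeR and DESeq2 called 0 of its 4 genes, beside 17%, 17.4% and 22.3% of all tested features. There was 1 gene at an unadjusted p under 0.05 in limma, beside 32.7% of all tested features. Sdha had 5362 and 5832 normalised reads in P0, 6544 and 6277 in P2, 7437 and 7297 in P4, 8899 and 6169.9 in P6 and 7426 and 8415 in P10. Sdha, the catalytic subunit with the flavin, lay above both P0 libraries in every later library, with a P10 difference of 0.50 ± 0.22 (adjusted p = 0.15). Sdhc had 2487 and 2772 normalised reads in P0, 2539 and 2596 in P2, 2723 and 2921 in P4, 3039 and 1271 in P6 and 1819 and 3381 in P10. Sdhc, a membrane anchor, overlapped with P0 at every passage and had a P10 difference of -0.08 ± 0.40 (adjusted p = 0.911). The iron-sulphur subunit Sdhb held 1397 and 1641 normalised reads at P10 against 1179 and 1071 at P0, and the other anchor, Sdhd, 480.1 and 1675 against 902 and 937. Thus the 2 catalytic genes were above P0 in both P10 libraries, and the 2 anchor genes in P10 replicate 2 alone.

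Complex III was represented by its large core proteins, Uqcrc1 and Uqcrc2, which face the matrix. Uqcrc1 had 1625 and 1719 normalised reads in P0, 1810.0 and 1933 in P2, 2166 and 2173 in P4, 1512 and 821 in P6 and 1064 and 3092 in P10. Uqcrc2 had 1455 and 1401 normalised reads in P0, 1714 and 1562 in P2, 1739.5 and 1739 in P4, 2212 and 1733 in P6 and 2183 and 1862 in P10. Uqcrc2 lay above both P0 libraries in all 8 later libraries, while Uqcrc1 lay below P0 in both P6 libraries and in P10 replicate 1 and far above it in P10 replicate 2. Neither passed at P10, with differences of 0.12 ± 0.45 for Uqcrc1 and 0.50 ± 0.18 for Uqcrc2 (adjusted p = 0.885 and 0.0853). The complex IV member Ndufa4 rose at P6 by 0.59 ± 0.15 and at P10 by 0.72 ± 0.15 (adjusted p = 0.0299 and 0.0157). The P10 call of Ndufa4 was lost without P0 replicate 1 or P0 replicate 2 (up to 0.135), and the P6 call without any 1 of the P0, P2 and P4 libraries or P6 replicate 1 (up to 0.18). Its paralogue Ndufa4l2, listed at 0 in 3 libraries, had too few reads to compare.

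ATP synthase genes lay on both sides of P0. At P10, 2 of 15 rose, Atp5if1 and Atp5pb, and 1 fell, Atp5f1d, beside 8.77% and 8.25% of all tested features. Atp5if1 had 504 and 492 normalised reads in P0, 572 and 681 in P2, 686 and 742 in P4, 1319 and 1146 in P6 and 1578 and 906 in P10. Atp5if1 encodes the inhibitor that blocks ATP hydrolysis by the enzyme. All later libraries lay above P0 and the P6 libraries and P10 replicate 1 were highest, with differences of 1.30 ± 0.25 at P6 and 1.26 ± 0.25 at P10 (adjusted p = 0.0102 and 0.0122). Both calls held in 8 of 10 fits with 1 library left out and were lost without P0 replicate 1 (0.0788 at P6 and 0.0943 at P10) or P0 replicate 2. Atp5pb had 2512 and 2567 normalised reads in P0, 3093 and 2798 in P2, 3041 and 3091 in P4, 3851 and 3139 in P6 and 4402 and 3687 in P10. Atp5pb, subunit b of the peripheral stalk, also stood above P0 in every later library, and rose by 0.67 ± 0.18 at P10 (adjusted p = 0.0363), a call kept in 3 of 10 such fits. It was lost without any 1 of the P0, P2 and P4 libraries or P10 replicate 1, at an adjusted p of up to 0.195.

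Atp5f1d had 252 and 178 normalised reads in P0, 92.7 and 117 in P2, 108 and 115 in P4, 91.6 and 47.2 in P6 and 43 and 113 in P10. Atp5f1d, the delta subunit of the central stalk, was the only member below both P0 libraries at P10, and it lay below them in every later library, whereas 52 of 57 members were positive at P2 and at P4 and 35 of 57 were negative at P6. It fell by 1.67 ± 0.47 at P6 and by 1.59 ± 0.47 at P10 (SE, log2 scale, adjusted p = 0.0363 and 0.0486). Each call passed in 3 of 10 fits with 1 library left out. Both were lost without any 1 of the P0, P2 and P4 libraries, the P6 call also without P6 replicate 2 and the P10 call without P10 replicate 1, with adjusted p of up to 0.204 at P6 and 0.265 at P10, and the P10 call was lost with edgeR as well. Atp5f1b had 6749 and 6629.8 normalised reads in P0, 8438 and 8469.9 in P2, 9101 and 8679.6 in P4, 11238 and 7274 in P6 and 9279 and 11445 in P10. Atp5f1b, the catalytic beta subunit, lay above P0 in every later library, and its P10 difference of 0.62 ± 0.24 did not pass (adjusted p = 0.113). Atp5mg had 44.4 and 33.1 normalised reads in P0, 71.9 and 65.9 in P2, 57.4 and 64.1 in P4, 84.5 and 89.9 in P6 and 76.8 and 60.9 in P10. Atp5mg, subunit g of the membrane part, rested on few reads; it rose at P6 by 1.16 ± 0.26 (adjusted p = 0.0182), in 7 of 10 such fits and not without P0 replicate 1, P0 replicate 2 (0.122) or P6 replicate 2.

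In mammals 3 genes, Atp5mc1, Atp5mc2 and Atp5mc3, encode the same mature subunit c of the proton-driven rotor with different import peptides. Atp5mc1 had 1228 and 1545 normalised reads in P0, 1816 and 1902 in P2, 2030.4 and 1751 in P4, 889 and 334 in P6 and 463 and 2277 in P10. Atp5mc2 had 836 and 891 normalised reads in P0, 934 and 1027 in P2, 1091 and 998 in P4, 577 and 202 in P6 and 317 and 1617 in P10. Atp5mc3 had 634 and 517 normalised reads in P0, 529 and 652 in P2, 520.5 and 459 in P4, 172 and 97.7 in P6 and 159 and 700.0 in P10. All 3 were low in both P6 libraries and in P10 replicate 1, and higher in P10 replicate 2 than in any P0 library. At P2 and P4, Atp5mc1 and Atp5mc2 lay above both P0 libraries while Atp5mc3 overlapped with them. At P6 only Atp5mc3 fell, with a difference of -2.13 ± 0.58 (adjusted p = 0.0329, and up to 0.174 without any 1 of the P0, P2, P4 and P6 libraries, each of which ended the call), and Atp5mc1 and Atp5mc2 differed by -1.34 ± 0.66 and -1.33 ± 0.68 (adjusted p = 0.172 and 0.182). At P10 the differences were -0.42 ± 0.66 for Atp5mc1, -0.27 ± 0.68 for Atp5mc2 and -0.78 ± 0.58 for Atp5mc3, and none passed by limma, edgeR or DESeq2, nor had an unadjusted p under 0.05. For Atp5mc1, Atp5mc2 and also Sdhc the P10 difference was 0.72, 0.90 and 0.36 without P10 replicate 1, and it passed when P6 replicate 2 was left out too.

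**Figure D4:**
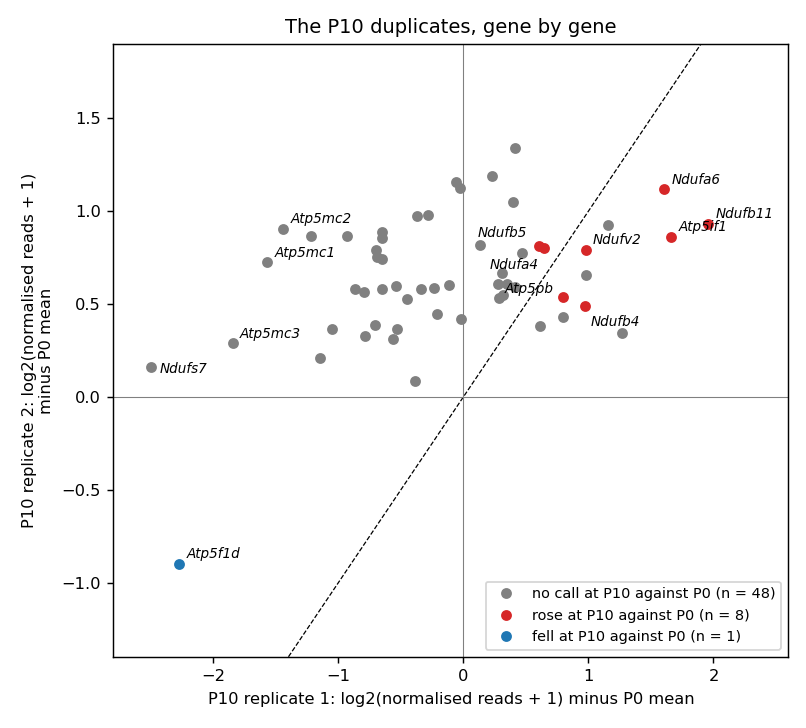
Each of the 57 genes by its log2(normalised reads + 1) minus the P0 mean in P10 replicate 1 (horizontal) and P10 replicate 2 (vertical), with the dashed line at equal values, red for the 8 genes that rose, blue for the 1 that fell and grey for 48 without a call. Of the 57, 46 lie above the line, and the genes that rose lie above 0 in both libraries.

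The members with all 8 later libraries above both P0 libraries numbered 15, beside 13.8% of all tested features. They were Atp5f1b, Atp5if1, Atp5mg, Atp5pb, Ndufa3, Ndufa4, Ndufa6, Ndufb10, Ndufb11, Ndufb4, Ndufb5, Ndufs5, Ndufv2, Sdha and Uqcrc2. These 15 include 8 of complex I, 4 of complex V, and 1 each of complexes II, III and IV, and in each complex with more than 1 member other genes did not stand above P0 throughout.

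The genes of the surrounding pathways were taken as whole lists and are described by counts beside the P10 background of 8.77% rising and 8.25% falling. Of 74 genes for mitochondrial ribosomal proteins, which make the mitochondrially encoded subunits, 5 rose and 1 fell at P10, and 61 had a positive difference, with a median of 0.34. The 4 with the smallest p were Mrpl40, Mrps18a, Mrpl32 and Mrpl3. Mrpl40 had 294 and 309 normalised reads in P0, 345 and 349 in P2, 395 and 396 in P4, 549 and 526 in P6 and 642 and 489 in P10. Mrpl40 rose by 0.89 ± 0.18, Mrpl32 by 1.60 ± 0.35 and Mrpl3 by 0.75 ± 0.19, while Mrps18a fell, with a log2 difference of -1.03 ± 0.21 (adjusted p = 0.0125, 0.0167, 0.0282 and 0.0136). Mrpl39 and Mrps15 also rose, and are named after their values were seen. At P4, 59 of the 74 had a positive difference with a median of 0.22. In the P10 libraries the median of this list above the P0 mean was 0.03 in replicate 1 and 0.55 in replicate 2.

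Of 20 tested assembly factors, which put the complexes together and stay outside them, 1 rose and 1 fell at P10. Tmem126b, a complex I assembly factor, rose by 0.76 ± 0.17 and Cox15, which makes haem A for cytochrome c oxidase, differed by -0.77 ± 0.20 and fell (adjusted p = 0.0186 and 0.0321). Of 22 mitochondrial import genes 1 rose, Timm22, an inner membrane translocase, by 0.78 ± 0.20 (adjusted p = 0.0331). Of 11 genes for the upkeep of mitochondrial DNA, the single-strand binding protein gene Ssbp1 rose by 0.73 ± 0.19 and the polymerase accessory gene Polg2 fell, with a difference of -1.07 ± 0.31 (adjusted p = 0.0325 and 0.0459). Of 14 citric acid cycle genes 1 rose, Idh3a, a subunit of the NAD-linked isocitrate dehydrogenase, by 0.78 ± 0.15 (adjusted p = 0.0115). In the list of coenzyme Q synthesis 13 genes were tested. There limma, edgeR and DESeq2 called 0, beside 17%, 17.4% and 22.3% of all tested features. In limma 4 had an unadjusted p under 0.05, beside 32.7% of all tested features. No row matched cytochrome c itself, Cycs.

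Glycolysis, the other route to ATP, showed a mixed picture: of 24 genes 1 rose and 2 fell at P10. The lactate carrier Slc16a1 rose by 0.69 ± 0.18 (adjusted p = 0.0336). Gpi had 562 and 405 normalised reads in P0, 175 and 222 in P2, 180.1 and 203 in P4, 171 and 140.4 in P6 and 106 and 194 in P10. Gpi, the isomerase of the second step of glycolysis, lay below both P0 libraries in all later libraries and had a P10 difference of -1.72 ± 0.31 (adjusted p = 0.00868), and Pdk2, a kinase that switches off pyruvate dehydrogenase, fell with a difference of -1.07 ± 0.27 (adjusted p = 0.0294). Of 69 cytosolic ribosomal protein genes 2 rose, the paralogues Rpl22l1 and Rps27l, by 1.12 ± 0.21 and 0.97 ± 0.20 (adjusted p = 0.0101 and 0.013). The median of this list lay at -1.46 in P6 replicate 2, -0.61 in P10 replicate 1 and 0.43 in P10 replicate 2 relative to the P0 mean, so it was low and high in the same 3 libraries as the respiratory chain members. Other lists did likewise, with medians in these 3 libraries of -0.69, -0.47 and 0.57 for import and -0.65, -0.45 and 0.30 for glycolysis. The citric acid cycle lay at -0.57, -0.30 and 0.28, while regulators of respiratory chain genes lay at -0.63, 0.26 and -0.04. The part of these lists in the members' values was not tested.

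Among 17 tested regulators of respiratory chain genes 3 rose and 2 fell at P10. Hif1a had 1483 and 1324 normalised reads in P0, 2513 and 2355 in P2, 2996 and 2973 in P4, 5775 and 6367 in P6 and 7209 and 3492 in P10. Hif1a, the oxygen-sensing transcription factor, lay above P0 in all later libraries and rose by 1.84 ± 0.30 (adjusted p = 0.00579, and 0.0554 without P0 replicate 1). Gabpa, the DNA-binding subunit of the GA-binding protein, rose by 0.73 ± 0.20, and Tfb1m, a methyltransferase of mitochondrial ribosomal RNA, by 0.97 ± 0.20 (adjusted p = 0.0406 and 0.0145). Pprc1 had 549.6 and 355 normalised reads in P0, 191 and 211 in P2, 139.5 and 143 in P4, 100.2 and 144 in P6 and 154 and 184 in P10. Hcfc1 had 1202 and 782 normalised reads in P0, 383 and 393 in P2, 225 and 290.2 in P4, 322 and 465 in P6 and 370.4 and 347 in P10. Pprc1, a coactivator of the PGC-1 family, and Hcfc1, a transcriptional cofactor, were below P0 in every later library and fell, with differences of -1.38 ± 0.27 and -1.43 ± 0.26 (adjusted p = 0.0114 and 0.00926). Nrf1 differed by 0.31 ± 0.15, Tfam, the packaging and transcription factor of mitochondrial DNA, by 0.35 ± 0.18, Ppargc1b by 0.47 ± 0.24, Esrra by -0.31 ± 0.45 and Myc by -0.91 ± 0.38, and these 5 did not pass (adjusted p = 0.181, 0.215, 0.212, 0.685 and 0.131). Ppargc1a, the coactivator best known for raising respiratory genes in muscle and brown fat, was under the minimum, at 0 to 6.74 normalised reads.

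**Figure D5:**
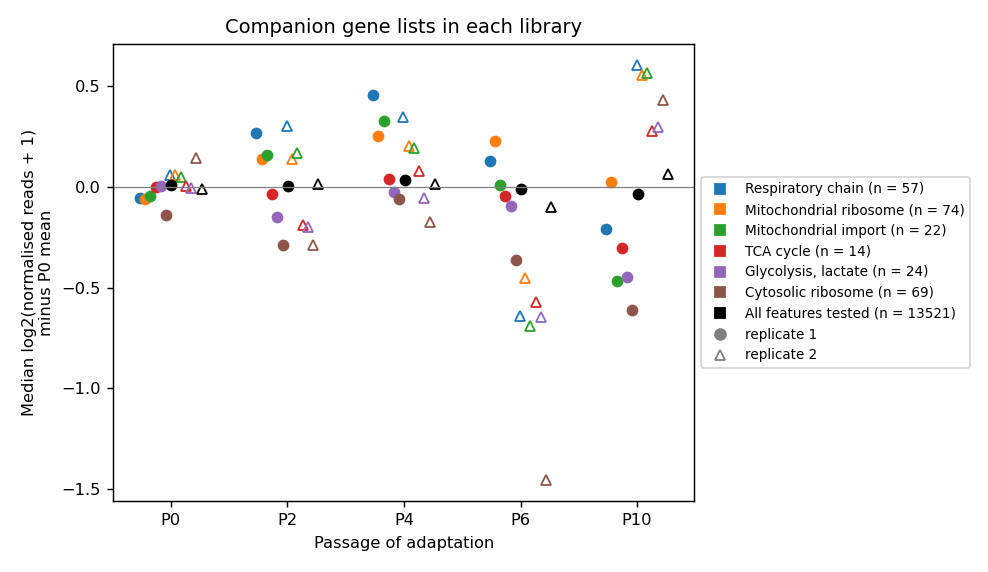
Median log2(normalised reads + 1) minus the P0 mean (vertical axis) of 6 gene lists and of all 13521 tested features, by passage (horizontal axis), with filled circles for replicate 1 and open triangles for replicate 2. At P4 the respiratory chain lies highest in both libraries, and at P6 and P10 the lists spread widely between duplicates while the median of all tested features stays within -0.10 to 0.07.

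All of the P10 calls of pathway and regulator genes given with an adjusted p above were lost without P0 replicate 1, at adjusted p of 0.0554 (Hif1a) to 0.229 (Ssbp1). Those of Rpl22l1, Rps27l, Gpi, Hcfc1 and Pprc1 held in the other 9 fits with 1 library left out, those of Hif1a, Tfb1m, Idh3a, Tmem126b, Mrpl32, Mrpl40 and Mrps18a in 8, and the remaining ones in 1 to 4.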

How the data were processed

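Total RNA was depleted of ribosomal RNA and made into stranded libraries, per the labels' protocols. The authors deposited a signal value per feature and library, made from read counts by DESeq normalisation, per the submitters' processing notes; aligner, counter and build were not given in the sources used here. All values (100%) were whole multiples of a step per library within 0.01 reads, so whole reads were recovered for the count alternatives (for P4 replicate 1 the step, 0.989, lies close to 1). Without strand and copy handling known, overlapping genes and near-identical copies are uncertain.

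Of 20050 gene numbers, 16386 were matched to symbols through the RefSeq table of CriGri-PICRH-1.0, and 5106 features carried a symbol. The main test was limma 3.58.1 (R 4.3.3) on log2(value + 1) with a trended prior, features with a mean of at least 10, a mean per passage over all 10 libraries (5 residual degrees of freedom), two-sided, adjusted over 13521 features. Differences are on that scale, which understates changes of low genes. Alternatives were pseudocounts of 0.5 and 5, a mean of at least 50, no filter, upper-quartile scaling, edgeR 4.0.16 and DESeq2 1.42.0 on recovered reads, a replicate block, the 4 libraries compared alone and leaving out each library. Leaving out both P6 replicate 2 and P10 replicate 1, and scaling to equal totals without Dym, were chosen after seeing the data. The fit was tested on simulated counts. Members and lists were chosen with earlier results of these data known. Named members were, per complex, the 2 highest in mean and the highest and lowest P10 difference, all called at P10, up to 6 called elsewhere per direction, isoform pairs, and the 2 most and 2 least variable; of each list up to 4 called at P10, and 8 regulators. Ndufa11, Ndufv1, Sdhb and Sdhd are given with values outside the rule.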

Additional observations from a re-analysis of the deposited data

How the results depend on the processing

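The number of respiratory chain genes called moved by over 1.5 times as follows. The calls over all tested features are given in brackets. At P2 against P0, where limma called 0, upper-quartile scaling gave 1 (513 of 13521 features) and DESeq2 gave 2 (7.85%). The 4 libraries alone gave 20 (29.1%), and the fit without P6 replicate 2 and P10 replicate 1 gave 27 (34.1%). At P4 against P0, with 4 in the main test, no filter gave 2 (1013 features), DESeq2 gave 7 (13.4%) and the replicate block gave 1 (767 features). The 4 libraries alone gave 41 (42.0%), and the fit without those 2 libraries gave 40 (43.1%). At P6 against P0, with 11 in the main test (21.0%), the block gave 7 (2024 features). The fit without the 2 libraries gave 28 there (48.8%). At P10 against P0, with 9 in the main test (17.0%), the 4 libraries alone gave 0 (0.362%). The fit without the 2 libraries gave 48 there (46.3%). The step P4 against P2 gave 4 with the 4 libraries alone (4.21%). P6 against P4 gave 4 with DESeq2 (3.42%) and 35 without the 2 libraries (27.5%). P10 against P6 gave 32 without the 2 libraries (26.7%). Each of these steps gave 0 in the main test (0%). Without the 2 libraries a lone library was left at P6 and at P10. Leaving out 1 library of a passage outside the comparison gave 0 to 5 calls at P2 (1.53% to 11.7%). At P4 it gave 1 to 13 (5.15% to 20.6%), at P6 6 to 27 (11.6% to 40.2%) and at P10 5 to 11 (9.85% to 18.9%). For P6 against P4 it gave 0 to 30 (0% to 27.2%). For P4 against P2 and P10 against P6 it gave 0 (at most 0.0666%). Leaving out 1 library of a compared passage left a lone library in that group. In those fits all members' calls at P4, P6 and P10 could be lost, and the calls over all tested features moved as well. The pooled spread includes the P6 and P10 duplicates, whose gaps were the widest, and a fit without 1 of a pair leaves that pair out of the spread. The reversed results, all without P6 replicate 2 and P10 replicate 1 and at P10, were Sdhc at 0.36, Atp5mc1 at 0.72, Atp5mc2 at 0.90 and Esrra at 0.43, against -0.53, -1.57, -1.44 and -1.05 without P10 replicate 2 alone; the cause was not tested. Scaling to equal totals without Dym put the median of all features at P10 against P0 at -0.10 and that of the members at 0.14. Over the genes named, 2099 values kept their side of the threshold, 110 newly passed and 284 no longer passed, both with their sign kept, and 4 reversed and passed. Of the 2099, 23 that passed in neither fit changed sign, 6 of them without P10 replicate 1. Replicate numbers did not pair the libraries: correlations between the deviations of replicate 1 ran from -0.67 for P6 with P10 to 0.23 for P2 with P10. The planned description of promoters and proteins was not run. Reads per library limit the genes with few reads, Atp5mg and Ndufa3 among the members.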
